A study of Mus musculus with 6 samples.

Results

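The 38 genes described here act in the G2 and M phases of the cell cycle. They were taken by gene symbol from a fixed list, and each of the 38 matched 1 of the 32285 genes in the deposited matrices. Their raw UMI (unique molecular identifier) counts were followed in single cells of the early mouse embryo, across 6 stages and across the lineages of each stage. Trophoblast giant cells, marked by the placental hormone gene Prl3d1, were kept apart from the rest of the trophoblast.

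Females were B6SJLF1/J and males B6CBAF1/J, with no stated genetic change, and their embryos were pooled into 1 library per stage. The earliest stages were E3.5 and E4.5, the middle ones E4.75 and E5.0, and the last E5.25 and E5.5. At E3.5 and E4.5 embryos were obtained by flushing from superovulated females of 4 weeks given PMSG and hCG, 2 hormone preparations that induce ovulation. From E4.75 to E5.5 the embryos were dissected from the uteri of females of 7 weeks mated without stated hormone treatment. Embryos were dissociated with Accumax and DNase, and cells were captured with the 10x Chromium 3' v3.1 chemistry. Cells of E3.5, E4.5 and E5.5 passed a 20 µm filter, and no filter is stated for those of E4.75, E5.0 and E5.25. A stage contrast across this line may thus also cross a change in handling. Since each stage is 1 library, replicate error is not known, no test was made between stages or classes, and each interval below covers counting error only.

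Entry into mitosis is driven by cyclin-dependent kinase 1 (Cdk1) bound to B-type cyclins. The spindle checkpoint (Bub1, Bub1b, Bub3, Ttk) holds cells in metaphase until the chromosomes are attached, and the anaphase-promoting complex, working with Cdc20 and the ubiquitin-conjugating enzyme Ube2c, then marks cyclin B for destruction. The actin-binding protein anillin (Anln), the exchange factor Ect2 and the kinesin Kif23 build the furrow that divides the cytoplasm. Transcripts of such genes accumulate in G2 and mitosis in dividing cells. Mouse trophoblast giant cells are known for endoreduplication, repeated rounds of DNA synthesis with no division, which begins around implantation in the trophoblast lying away from the inner cell mass.

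After filtering 20817 cells remained (88, 961, 2496, 5262, 3908 and 8102 from E3.5 to E5.5), with library medians of 5104 to 31090 UMIs per cell. Cells were sorted into classes by clustering on variable genes that left out the 38 genes and 25 S phase genes, and clusters were named from marker genes, so each class name below means cells like that type. Epiblast numbered 44 to 2322 cells per library, endoderm 420 to 1738 from E4.5, parietal endoderm 287 to 557 from E4.75, and trophoblast other than giant cells 42 to 1836. Giant cells numbered 165, 208 and 248 at E5.0, E5.25 and E5.5, and the 6 at E4.75 were too few to use. Clusters with markers of unrelated classes were set aside as mixed, which took 18.5% of the E5.5 cells and at most 3.21% elsewhere. Among the mixed E5.5 cells, 773 formed a cluster with Hand1 and Prl3d1 among its leading genes, so many Prl3d1 cells lie outside the giant cell class. Pairs of libraries shared at most 11 cell barcodes. Levels are given in CPM, the UMIs of a gene summed over the cells of a class in 1 library and divided by all UMIs of those cells, on the usual CPM scale, so they weigh each cell by its depth. A ratio is log2 of CPM plus 10, and a gene is counted as higher or lower where the plain ratio of CPM reached 2-fold with at least 10 CPM on 1 side.

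Promoter sequences show what the genes share outside the measured counts. RefSeq windows on GRCm38.p6, from 250 bases before to 50 after the gene's start, were on hand for 32 of the 38. Many late cell cycle promoters are known to carry a cell cycle homology region, searched here as TTTGAA, and CCAAT boxes, both read on either strand. Counted by gene, as some have more than 1 window, TTTGAA was found in 24 of the 32 (75%) and CCAAT in 24 (75%). Over all 27025 gene symbols the shares were 20.2% and 41.1%, and over all 32851 windows 17.9% and 37.4%. Both motifs stood in 20 of the 32 genes (62.5%), against 7.97% of all symbols and 6.95% of all windows, and they overlapped in 1 window, that of Cdca8. A match is a run of letters and not a shown binding site. In 20 of the 32 genes TTTGAA lay between 30 bases before the start and the window's end, a stretch chosen after the positions were seen. The share was 3.83% of all windows, which is counted by window and not by gene.

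The 5 windows printed here belong to the genes on which the results below turn, and run 5' to 3' on the strand of the gene with both motifs in capitals. They are those of Ube2c (chr2:164769679-164769978, plus strand), Cks2 (chr13:51644982-51645281, plus), Top2a (chr11:99024140-99024439, minus), Anln (chr9:22389157-22389456, minus) and Nusap1 (chr2:119618048-119618347, plus).
Ube2c: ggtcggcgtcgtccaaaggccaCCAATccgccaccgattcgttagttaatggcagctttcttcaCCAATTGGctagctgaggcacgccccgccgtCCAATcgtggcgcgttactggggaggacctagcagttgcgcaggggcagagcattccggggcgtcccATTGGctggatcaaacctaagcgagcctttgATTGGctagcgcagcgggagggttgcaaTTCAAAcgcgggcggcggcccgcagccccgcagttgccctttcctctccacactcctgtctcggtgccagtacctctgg
Cks2: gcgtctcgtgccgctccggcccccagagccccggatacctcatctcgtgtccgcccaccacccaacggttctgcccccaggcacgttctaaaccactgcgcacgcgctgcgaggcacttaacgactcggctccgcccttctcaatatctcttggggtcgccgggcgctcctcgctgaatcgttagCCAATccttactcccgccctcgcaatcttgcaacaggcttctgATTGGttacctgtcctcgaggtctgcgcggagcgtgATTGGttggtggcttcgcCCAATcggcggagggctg
Top2a: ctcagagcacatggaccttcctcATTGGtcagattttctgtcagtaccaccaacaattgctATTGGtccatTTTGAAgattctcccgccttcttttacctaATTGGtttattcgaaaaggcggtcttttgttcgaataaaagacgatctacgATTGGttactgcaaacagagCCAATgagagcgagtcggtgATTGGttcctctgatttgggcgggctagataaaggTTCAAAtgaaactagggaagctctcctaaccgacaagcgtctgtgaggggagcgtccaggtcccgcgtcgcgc
Anln: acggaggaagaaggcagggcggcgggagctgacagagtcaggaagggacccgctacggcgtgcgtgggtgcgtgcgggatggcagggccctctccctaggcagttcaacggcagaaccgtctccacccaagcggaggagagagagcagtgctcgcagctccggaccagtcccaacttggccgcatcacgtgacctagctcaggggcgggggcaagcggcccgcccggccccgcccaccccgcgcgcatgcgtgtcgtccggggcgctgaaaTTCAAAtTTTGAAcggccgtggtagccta
Nusap1: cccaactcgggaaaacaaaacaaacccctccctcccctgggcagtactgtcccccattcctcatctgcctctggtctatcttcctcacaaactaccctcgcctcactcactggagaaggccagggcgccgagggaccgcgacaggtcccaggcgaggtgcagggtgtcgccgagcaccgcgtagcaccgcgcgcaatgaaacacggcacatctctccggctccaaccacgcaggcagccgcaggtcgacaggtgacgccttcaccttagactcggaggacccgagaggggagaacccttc
The Ube2c window held TTTGAA 1 time and CCAAT 6 times, and that of Top2a 2 and 6 times. Cks2, with the highest mean level of the 38, had 4 CCAAT boxes and no TTTGAA, and Anln had 2 TTTGAA motifs, just after its start, and no CCAAT. Nusap1, which varied most between classes, had neither in this window.

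The summed level of the 38 genes lay between 2924 and 5512 CPM in the 24 combinations of class and stage with at least 30 cells, and the lowest 2 were both trophoblast. In trophoblast it began at 3263 CPM (E3.5), stood at 2924 CPM in the E4.5 library (95% Poisson interval 2864 to 2985), and was then 4769, 4969, 4918 and 5149 CPM from E4.75 on. Epiblast stood at 3873, 4292, 5512, 4956, 4929.5 and 4966 CPM over the 6 stages. Endoderm kept a narrower range from E4.5 to E5.5, at 3993, 4274, 4572, 4614 and 4212 CPM, while parietal endoderm ran from 5266 CPM at E4.75 to 4454 CPM at E5.25. Giant cells, at 5287 (5219.8 to 5355), 4916 and 4971 CPM, lay within the range of the other classes of their libraries at E5.25 and E5.5 and above all of them at E5.0. In bulk sums of this kind fewer cells in G2 and M and less RNA per cell cannot be told apart.

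**Figure D1:**
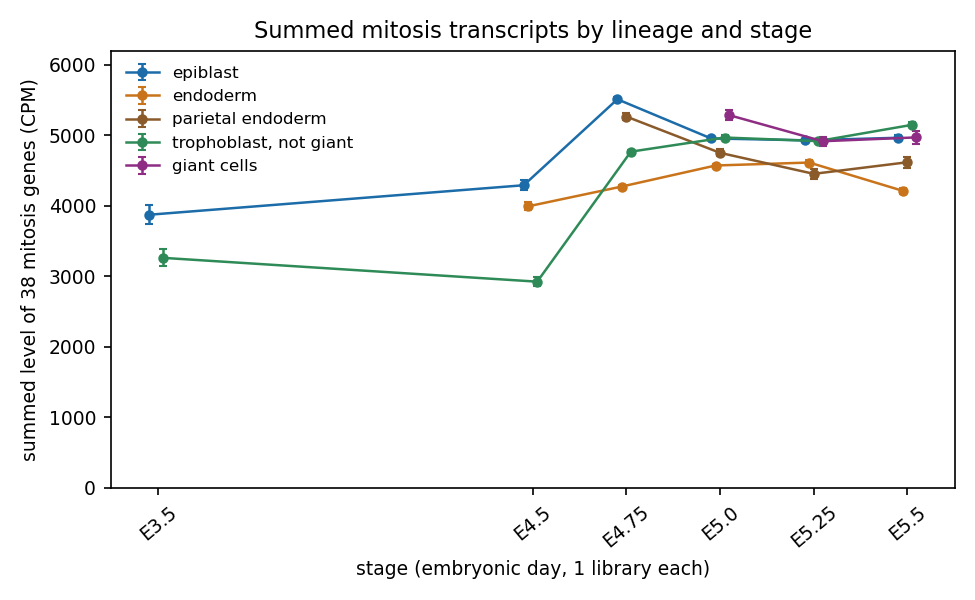
Summed level of the 38 mitosis genes (CPM, from 0) against stage for 5 classes, 1 library per stage; bars are 95% Poisson intervals and cover counting error only. Trophoblast at E4.5 sits lowest, at 2924 CPM, and giant cells from E5.0 on lie among the other classes or above them.

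Each of the 38 genes varied between the 24 combinations, from a highest-to-lowest ratio of 1.77 for the kinesin Kif20a to 8.29 for the spindle protein Nusap1. Trophoblast at E3.5 held the lowest level of 12 genes and trophoblast at E4.5 that of 10. Epiblast at E4.75 held the highest level of 9 genes and parietal endoderm at E4.75 that of 6. Mean levels ran from 16.6 CPM for the phosphatase gene Cdc25c to 480.0 CPM for Cks2, and all 38 passed the minimum of 10 CPM in every contrast below.

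**Figure D2:**
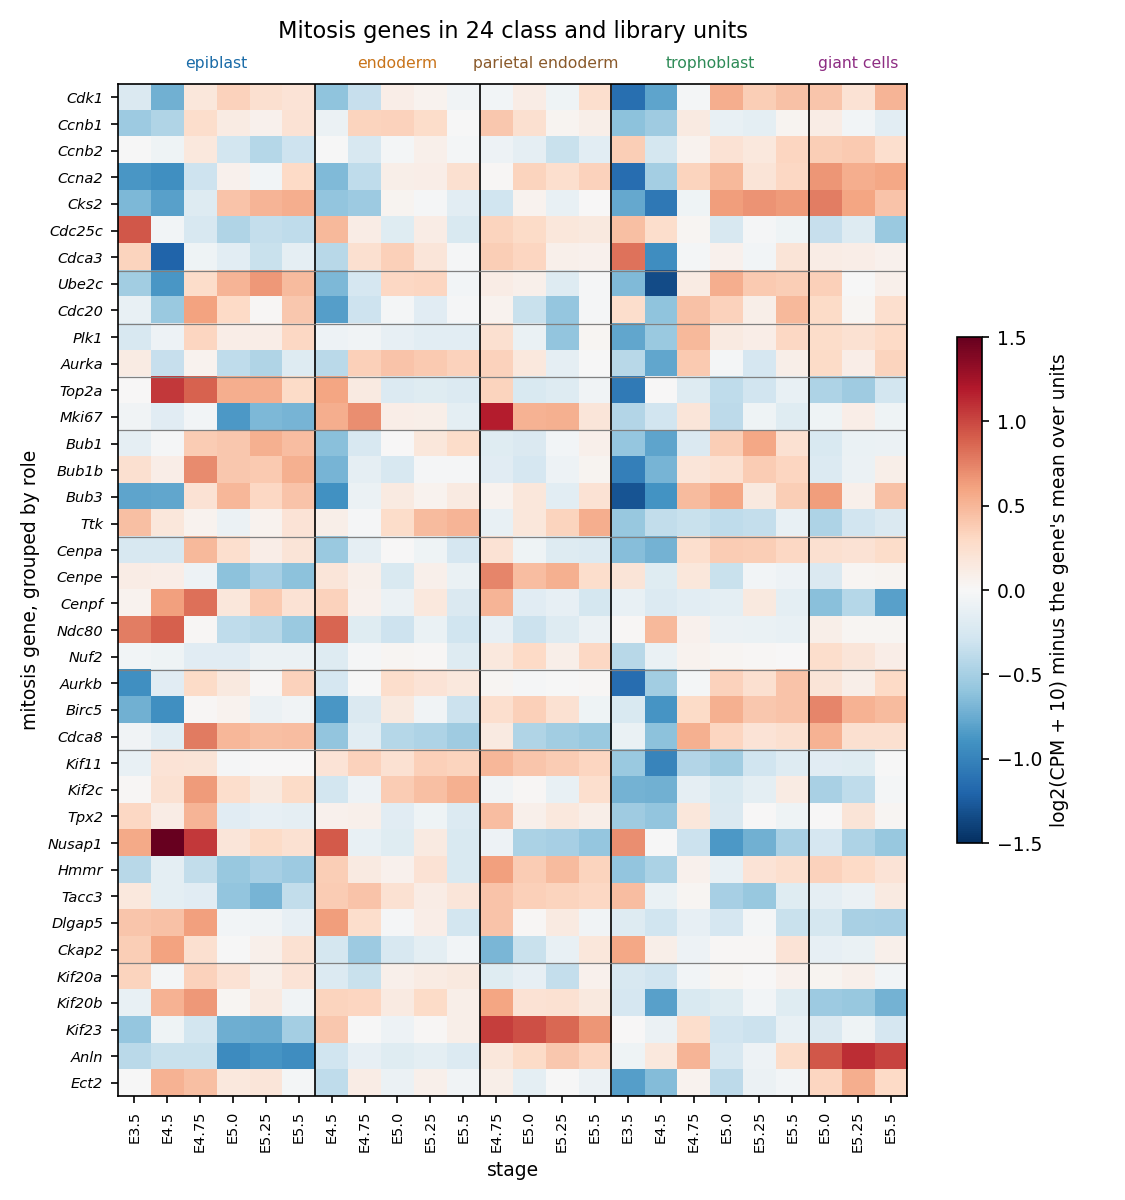
Level of each of the 38 genes (rows, grouped by role) in 24 combinations of class and stage (columns), as log2(CPM + 10) minus the gene's mean over the columns; red is above and blue below that mean. The columns of trophoblast at E3.5 and E4.5 are mostly blue, and Anln is reddest in the 3 giant cell columns.

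Cks2, a small partner of Cdk1, had the highest level among the cyclin and kinase genes. In epiblast it stood at 279, 252, 390.4, 607, 647 and 658 CPM from E3.5 to E5.5, and in trophoblast at 260.3, 208, 429.7, 697, 721 and 707 CPM. Endoderm held 295, 306, 461, 445 and 402 CPM from E4.5 and parietal endoderm 363, 466, 414 and 451 CPM from E4.75, while giant cells held 775, 683 and 606 CPM at E5.0, E5.25 and E5.5. Up to E4.5 no lineage was above 295 CPM, and the highest 3 levels were in giant cells at E5.0 and in trophoblast at E5.25 and E5.5. The lowest level after E4.5 was 306 CPM, in endoderm at E4.75. This split falls at the change from flushed to dissected embryos, the part of which was not tested, and the share of all genes with it was not computed. The other engine genes ranged more narrowly between classes at E5.5: Cdk1 from 192.0 CPM in endoderm to 287 CPM in giant cells, and the cyclin gene Ccnb1 from 143 CPM in giant cells to 189 CPM in epiblast. The S and G2 cyclin gene Ccna2 reached its highest level in giant cells, at 201, 184 and 189 CPM, and Ccnb2 also peaked there, at 89.4 CPM at E5.25.

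Ube2c, which builds ubiquitin chains for the anaphase-promoting complex, came next to Cks2 in the log2 ratio of E5.5 over E4.5 in trophoblast, and first in that of E4.75 over E4.5. Its level in trophoblast was 193, 116, 339.9, 457, 411 and 404 CPM from E3.5 to E5.5, and in epiblast 213, 164, 378, 447, 491 and 435 CPM. Endoderm had 190.2, 259, 386, 389 and 301 CPM, parietal endoderm 337, 327, 269.8 and 306 CPM and giant cells 399, 309.9 and 327 CPM at their stages. The highest level up to E4.5 was 213 CPM and the lowest after it 259 CPM, so the early and later stages did not overlap. This split falls at the change from flushed to dissected embryos, the part of which was not tested. The share of all genes with such a split was not computed. Cdc20, the activator of that complex, ran from 79.3 CPM in endoderm at E4.5 to 230.0 CPM in epiblast at E4.75.

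Aurka, a spindle pole kinase, stood in epiblast at 102, 71.3, 96.9, 69.2, 65.6 and 80.0 CPM and in trophoblast at 67.5, 50.3, 125, 91.2, 76.6 and 99.7 CPM over the 6 stages. In endoderm it was 68.0, 122, 129, 125 and 121 CPM, in parietal endoderm 121, 105, 83.6 and 92.8 CPM and in giant cells 116, 100.3 and 120.3 CPM. Epiblast was the lowest of these classes at each stage from E4.75 on, and endoderm stood above it by a log2 ratio of up to 0.84, at E5.25. Plk1, the kinase that triggers centrosome maturation and mitotic entry, ran from 36.2 CPM in trophoblast at E3.5 to 101 CPM in trophoblast at E4.75.

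Top2a, the topoisomerase that untangles sister chromatids, followed another course. Epiblast held 387, 813, 721, 568, 567 and 471 CPM, endoderm 584, 424, 334, 337 and 332 CPM and parietal endoderm 489, 328, 336 and 369.6 CPM, each highest at its first stage from E4.5 on. Trophoblast held 179.6, 388, 335, 293, 313 and 355 CPM and giant cells 276, 263 and 316 CPM, so epiblast was above trophoblast at all 6 stages. Mki67, the chromosome surface protein used as a proliferation marker, was highest in parietal endoderm at E4.75 (258 CPM) and lowest in epiblast at E5.0 (54.8 CPM).

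Bub3, a checkpoint component, stood in epiblast at 80.7, 81.7, 173, 212, 184 and 202 CPM, in trophoblast at 54.2, 74.5, 208, 226, 164 and 193 CPM and in endoderm at 73.5, 138, 163, 153 and 162 CPM. Parietal endoderm held 153, 167, 130.4 and 172 CPM and giant cells 233, 156 and 203 CPM. In the 3 lineages present at E4.5 the highest level up to that stage was 81.7 CPM and the lowest later one 138 CPM. As for Ube2c, this split falls at the change in collection, and the share of all genes with it was not computed. The checkpoint kinase genes Bub1 and Ttk had mean levels of 68.5 and 38.3 CPM and Bub1b 59.6 CPM, each lowest in trophoblast at E3.5 or E4.5.

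Cenpa, the histone variant of centromeres, was at 140.0, 139, 239, 200.1, 180.0 and 192 CPM in epiblast and 104, 98.6, 200.2, 219.6, 219 and 210.2 CPM in trophoblast. Endoderm held 109.9, 151, 168, 159.9 and 138 CPM, parietal endoderm 196, 159.6, 145 and 144 CPM and giant cells 199, 196 and 204 CPM. From E5.0 on trophoblast and giant cells were at 196 CPM or above, and endoderm at 168 CPM or below. Epiblast was within the upper range at E5.0 and between the ranges at E5.25 and E5.5. Cenpa did not pass 2-fold between trophoblast and endoderm at these stages, and how many of all genes show such a gap was not computed. The kinetochore genes Cenpe, Cenpf, Ndc80 and Nuf2 had mean levels of 99.8, 151, 32.3 and 21.4 CPM. Ndc80 was highest in epiblast at E4.5 (65.8 CPM) and lowest in epiblast at E5.5 (17.6 CPM).

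Birc5 (survivin), a subunit of the chromosomal passenger complex, stood at 164, 141, 279.7, 289, 259 and 266 CPM in epiblast and 235, 146, 339, 404, 371 and 375 CPM in trophoblast. Endoderm held 147, 237, 307, 267 and 219 CPM and parietal endoderm 331, 358, 327 and 266 CPM. Giant cells held 465, 403 and 390.4 CPM, the highest of these 5 classes within each of their 3 libraries. The complex's kinase gene Aurkb ran from 18.1 CPM in trophoblast at E3.5 to 73.4 CPM in trophoblast at E5.5, and its subunit gene Cdca8 from 80.9 CPM in trophoblast at E4.5 to 228 CPM in epiblast at E4.75.

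Tpx2, which targets Aurka to the spindle, varied least among the top genes of each role, with 155, 134, 180.0, 109, 112 and 111 CPM in epiblast and 82.0, 78.6, 140.1, 105, 124 and 118 CPM in trophoblast. It stood at 129, 131, 109, 117 and 106 CPM in endoderm, 174, 131, 139 and 132 CPM in parietal endoderm and 124, 143 and 126 CPM in giant cells. Its lowest 2 levels were again trophoblast at E4.5 and E3.5. The kinesins Kif11 and Kif2c were likewise lowest in trophoblast at E4.5, at 46.1 and 23.9 CPM, and the microtubule proteins Hmmr, Tacc3, Dlgap5 and Ckap2 had means of 76.9, 90.2, 41.3 and 34.0 CPM.

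Anln was the gene whose giant cell levels did not overlap those of the other 4 classes. In giant cells it stood at 188, 213 and 199 CPM, and in trophoblast at 89.2, 105, 137, 77.5, 88.5 and 115 CPM over the 6 stages. Epiblast held 68.1, 72.4, 72.1, 43.7, 46.1 and 44.2 CPM, endoderm 74.1, 85.0, 81.6, 83.6 and 80.0 CPM and parietal endoderm 106, 116, 127 and 119.7 CPM. The lowest giant cell level, 188 CPM, was above the highest of the other 4 classes, 137 CPM in trophoblast at E4.75. Parts of the trophoblast came nearer. Anln was at 176 CPM in the E4.75 sub-cluster led by Il24 and Cdh5, and at 182 CPM in an ectoplacental cone sub-cluster of E5.5. The share of all genes with such a gap was not computed. Of the other cytokinesis genes, Ect2 also peaked in giant cells (141 CPM at E5.25), Kif23 in parietal endoderm at E4.75 (180.2 CPM), and Kif20a and Kif20b in epiblast at E4.75 (75.5 and 116 CPM).

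Giant cells were compared with the rest of the trophoblast of the same library, which shares its handling. Anln was 2-fold higher in giant cells at E5.0 (log2 ratio 1.18) and E5.25 (1.18), and 0.74 higher at E5.5, short of 2-fold. At E5.0 it was the 1 gene of 38 counted as higher, where 8.94% of all tested genes were, and none of the 38 was counted as lower, where 7.31% were. At E5.25 the counts were again 1 higher (background 9.81%) and 0 lower (8.03%), and at E5.5 0 higher (9.25%) and 0 lower (8.14%). The median log2 ratio of the 38 genes was 0.09, 0.07 and -0.07 at the 3 stages, and that of all tested genes 0.02, 0.04 and 0.03. With giant cells taken instead as the trophoblast cells with Prl3d1 at 0.1% or more of UMIs, no gene was counted as higher, and 1 was counted as lower at E5.0 and at E5.5.

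Below Anln the next in order at all 3 stages was Ect2, which activates RhoA at the division plane. Ect2 stood at 119, 141 and 117 CPM in giant cells and at 68.8, 87.1 and 90.3 CPM in the other trophoblast, log2 ratios of 0.71, 0.64 and 0.34. The third highest was Nusap1 at E5.0 (42.7 and 24.4 CPM, 0.61) and Tacc3, a spindle protein bound by Aurka, at E5.25 (81.8 and 55.7 CPM, 0.48) and E5.5 (96.8 and 76.1 CPM, 0.31). At the low end stood the checkpoint kinase gene Bub1 at E5.0 (55.0 and 88.2 CPM, -0.59) and E5.25 (60.8 and 104 CPM, -0.69). Cenpf, a kinetochore protein of G2 and mitosis, was among the lowest 3 at each stage, at 90.9, 106 and 78.9 CPM in giant cells and 131, 163 and 131 CPM in the other trophoblast. Its log2 ratios were -0.48, -0.57 and -0.66. The remaining low places were held by Bub1b at E5.0 (-0.43), Kif20b at E5.25 and E5.5 (-0.52 at both) and Cdc25c, which activates Cdk1, at E5.5 (7.52 and 14.7 CPM, -0.50). Of the 5 cytokinesis genes, Anln and Ect2 thus stood at the top of the order and Kif20b near its foot, and no member but Anln passed 2-fold.

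**Figure D3:**
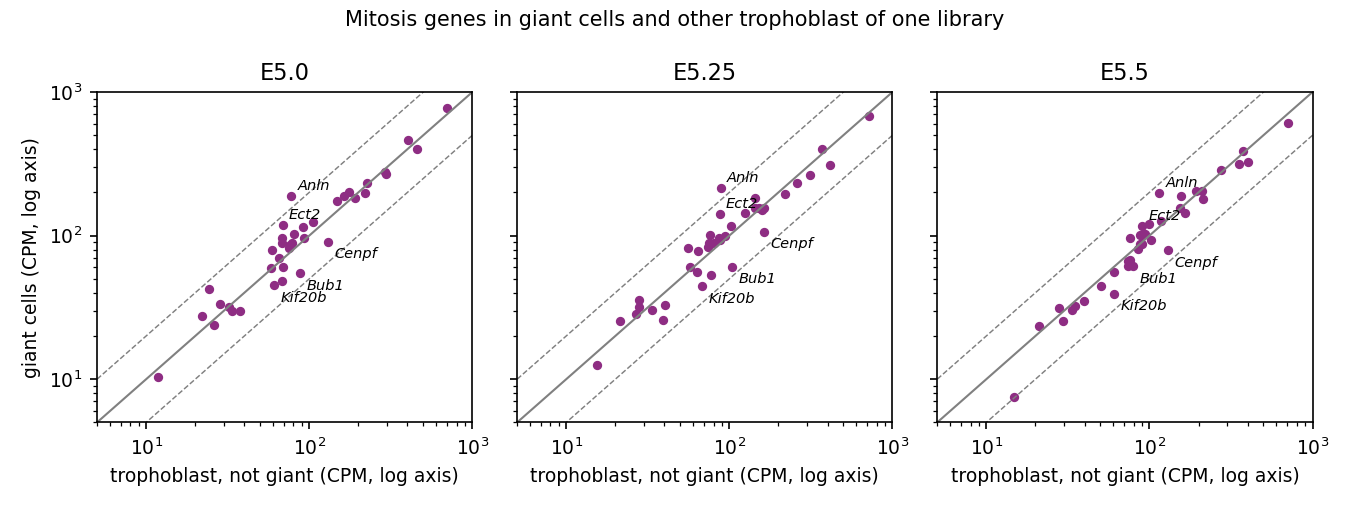
Level of each of the 38 genes in giant cells against the other trophoblast of the same library (CPM, both axes log), 1 panel per stage; the solid line is equality and the dashed lines are 2-fold. Anln lies outside the dashed lines at E5.0 and E5.25 and inside at E5.5, and Cenpf, Bub1 and Kif20b lie below equality in all 3 panels.

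Outside the 38 genes, the giant cells were also read for marker genes. Prl3d1 stood in them at 1093, 1959 and 1516 CPM and in the other trophoblast at 7.49, 13.4 and 9.03 CPM. A giant cell cluster needed Prl3d1 among its 10 leading genes, and Hand1 is also a giant cell marker. The levels of both thus describe the label and do not test it. Hand1, a transcription factor needed for giant cells, stood at 1622, 1855 and 1820.0 CPM against 422, 475.1 and 605 CPM. Of the other giant cell markers, Prl3d2, Prl3d3, Cdh5 and Mmp9 were also higher in giant cells at each stage. They are on the same marker list, so their levels likewise describe the label and do not test it. Prl2c2 was below 1 CPM in both groups, and Star differed little (2.24, 3.09 and 3.29 CPM against 1.96, 2.02 and 1.85 CPM). Of single genes of other lineages, the epiblast gene Pou5f1 was at 11.7, 7.01 and 14.6 CPM (581, 500.2 and 541 CPM in epiblast), and the endoderm gene Apoa1 was at 4.71, 2.06 and 2.35 CPM (1049.9, 1118 and 752 CPM in endoderm). Of 7 endothelium markers 2, 3 and 3 reached 10 CPM in giant cells, and their sum was 128, 169.8 and 184 CPM against 38.4, 35.5 and 34.9 CPM in the other trophoblast. Most of that sum was Pecam1, an adhesion molecule of endothelium, at 104, 129.8 and 141 CPM against 5.75, 4.23 and 5.34 CPM. Kdr (6.96, 10.3 and 18.8 CPM against 0.37, 0.65 and 2.26 CPM) and Tie1 (1.80, 7.01 and 6.58 CPM against 0.18, 0.34 and 0.34 CPM) were also higher in giant cells. Egfl7 was lower in them (15.0, 22.7 and 16.0 CPM against 32.0, 30.1 and 27.0 CPM). The endothelial markers Cldn5, Emcn and Tek were each below 1 CPM in giant cells. Of 7 immune markers 1 reached 10 CPM in giant cells (Cd52), with Ptprc and C1qa at 0, and their sum was 43.6, 33.6 and 20.2 CPM against 16.4, 21.0 and 13.4 CPM. Of 9 uterine epithelium markers 2 reached 10 CPM in giant cells at each stage, and the sum was 178, 177 and 142 CPM against 145, 123 and 109 CPM in the other trophoblast. Median depth per cell was 24584, 20779 and 7118.5 UMIs in giant cells and 22410, 23685.5 and 6380.0 UMIs in the other trophoblast. The part of those markers and of depth in the ratios was not tested. The E5.5 library passed the 20 µm filter and no filter is stated for those of E5.0 and E5.25. The part of this in the giant cell values was not tested.

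The cells of the trophoblast and giant cell classes were also pooled and binned by the share of Prl3d1 in their UMIs. At E5.0 the sum of the 38 genes was 5013 CPM in cells with no Prl3d1 UMI, 5095 CPM below 0.1% and 5086 CPM from 0.1% to under 1%. At E5.25 the 3 bins stood at 4922, 5023 and 4800.5 CPM, and at E5.5 at 5152, 4954 and 5017 CPM. The order of the bins thus differed between the libraries. Only 4, 13 and 2 cells reached 1%, too few for a bin per library. Pooled over the 3 libraries after the values were seen, these 19 cells had a sum of 3966 CPM (3751 to 4189), an S phase sum of 2255 CPM and Anln at 96.0 CPM. Their Prl3d1 made up 1.47% of UMIs.

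Between the giant cells and the ectoplacental cone, the trophoblast that borders them, none of the 38 genes was counted at any of the 3 stages. The background was 4.32%, 6.60% and 5.51% of all tested genes higher and 3.73%, 4.36% and 3.95% lower at E5.0, E5.25 and E5.5. Anln stood in the cone at 124, 131 and 159 CPM and in the extraembryonic ectoderm, which renews the trophoblast, at 65.9, 72.8 and 81.0 CPM. In each library its order was therefore extraembryonic ectoderm, cone, giant cells, with intervals that did not overlap. None of the 38 reached 2-fold between cone and extraembryonic ectoderm either (background 4.21%, 3.81% and 6.23% higher and 3.21%, 3.55% and 5.63% lower at the 3 stages), where Anln led at E5.5 with a log2 ratio of 0.90. Over the same 3 classes Bub1 ran the other way at E5.0, at 93.6, 67.7 and 55.0 CPM.

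From E4.5 to E5.5 the trophoblast had the most genes counted and the largest median of the 3 lineages. Both libraries passed the filter, but the pair crosses the change from flushed embryos of superovulated females to dissected embryos of older females without stated hormone treatment, and the part of this was not tested. Of the 38 genes 13 were at least 2-fold higher at E5.5, where 11.2% of all tested genes were, and none was lower, where 15.0% were. The median log2 ratio was 0.62 against 0.05 over all tested genes. Cks2 led, from 208 to 707 CPM (log2 ratio 1.72), followed by Ube2c, from 116 to 404 CPM (1.71), and Birc5, from 146 to 375 CPM (1.31). The other 10 were Bub3, Cdca3, Cdk1, Bub1, Bub1b, Cdc20, Aurkb, Cenpa, Kif2c and Plk1, so both ubiquitin genes, 3 of 4 checkpoint genes and 2 of 3 passenger complex genes were among them. Ndc80, Nusap1 and Cdc25c, with ratios of -0.59, -0.48 and -0.32, stood lowest.

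Trophoblast was also compared between E4.5 and E4.75. This pair shares the E4.5 trophoblast with the contrast above and crosses the change in collection and in stated filtering. There 11 of the 38 genes were higher at E4.75 (background 5.21%) and none lower (9.80%), with a median of 0.56 against 0.12 over all tested genes. The 11 were Ube2c, Bub3, Aurka, Cdca8, Birc5, Plk1, Cdc20, Bub1b, Cdca3, Cks2 and Cenpa. With median-of-ratios size factors in place of CPM 7 were higher. Between E4.75 and E5.0, E5.0 and E5.25, and E5.25 and E5.5 none of the 38 was counted in trophoblast, epiblast or endoderm, where between 0.0249% and 2.29% of all tested genes were higher and between 0.118% and 6.61% lower. Between E4.75 and E5.25, both with no stated filter, none was counted either in those lineages (background 2.31% to 3.67% higher and 2.70% to 7.56% lower).

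Within the E4.75 trophoblast, 34 cells clustered with the trophoblast of E4.5. BC051665, Ctsll3 and Nppb were among the leading genes of this sub-cluster, taken over the whole sub-cluster and not in the 34 cells alone. This sub-cluster was picked out after its values were seen. Its summed mitosis level was 1599 CPM (1517 to 1683), and that of the other 414 trophoblast cells of the library 4912 CPM (4881 to 4943), 3.07-fold more. Of the 38 genes 29 were at least 2-fold lower in the 34 cells, where 12.7% of all tested genes were, and none was higher, where 18.7% were, with a median log2 ratio of -1.40. Both groups came from the 1 library of this stage, which pools embryos, and whether they came from the same embryos was not tested.

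Cenpf stood at 8.81 CPM (3.80 to 17.4) in the 34 cells and 135 CPM in the others, and Ube2c at 45.1 and 353 CPM. Ccna2 stood at 22 and 164 CPM, Mki67 at 17.6 and 128 CPM, and Top2a at 63.9 and 348 CPM. Each of these 5 genes was more than 5-fold lower in the 34 cells. The 9 that were not past 2-fold were Kif23, Cenpe, Bub1b, Cdk1, Kif20b, Anln (94.7 and 139 CPM), Ect2 (73.8 and 98.7 CPM), Ttk and Tacc3 (101 and 89.2 CPM). Of the 25 S phase genes, 7 were lower and none higher, and their sum was 1653 CPM in the 34 cells and 2703 CPM in the others. Prl3d1 was at 2.20 and 20.6 CPM, but the sum of the 8 giant cell markers was 967 and 820.2 CPM, with Hand1 at 759.7 and 626 CPM. The sum of ectoplacental cone markers was 1560.1 and 601 CPM and that of immune markers 71.6 and 19.7 CPM, with Ptprc at 0 in both groups and C1qa at 8.81 and 0.05 CPM. The sum of trophoblast markers was 6464 and 2615 CPM, of uterine epithelium markers 679 and 192 CPM (2 of 9 markers at 10 CPM or more in the 34 cells and 4 at 0), the mitochondrial share 7.65% and 3.90%, and the median depth 25266 and 44796.5 UMIs. The part of these in the difference was not tested.

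The 2 other large trophoblast sub-clusters of E4.75 stood at 4834 CPM (211 cells, extraembryonic ectoderm) and 4995 CPM (191 cells, led by Il24 and Cdh5). At E4.5 the sub-cluster itself, with 208 cells, had 3025 CPM. A further cluster of the E4.75 library also had a low level. This cluster, led by Crct1, Prap1 and Gjb2, set aside as mixed because it carried uterine epithelium and immune markers, had 225 CPM at E4.75 (35 cells, 172 to 289) and 561 CPM at E5.25 (30 cells, 471 to 664).

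In epiblast 6 of the 38 genes were at least 2-fold higher at E5.5 than at E4.5 (background 13.0%) and 2 were lower (18.1%), with a median of 0.01 as over all tested genes. The 6 were Ube2c (164 to 435 CPM, log2 ratio 1.35), Cks2 (252 to 658 CPM, 1.35), Ccna2 (60.3 to 154 CPM, 1.22), Bub3, Cdca3 and Cdc20. The 2 lower were Nusap1 (203 to 63.4 CPM, -1.53) and Ndc80 (65.8 to 17.6 CPM, -1.46), followed by Top2a (813 to 471 CPM, -0.77), which did not reach 2-fold. The sum over the list was 4292 CPM at the earlier stage and 4966 CPM at the later one, with 19 of the 38 ratios below 0.

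In endoderm Bub3 (73.5 to 162 CPM, log2 ratio 1.04) and Bub1 (39.5 to 82.3 CPM, 0.90) were higher at E5.5 than at E4.5 (2 of 38, background 17.5%). Ccna2 stood between them at 0.91, just short of 2-fold. Ndc80 (64.5 to 23.1 CPM, -1.17), Nusap1 (109 to 43.6 CPM, -1.15), Dlgap5 (67.0 to 31.5 CPM, -0.89) and Cdc25c (26.05 to 12 CPM, -0.71) were lower (4 of 38, background 11.7%). The median of the 38 was 0.11 and that of all tested genes 0.18. Nusap1 and Ndc80 were thus lower at E5.5 in all 3 lineages by value, past 2-fold in epiblast and endoderm and not in trophoblast.

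**Figure D4:**
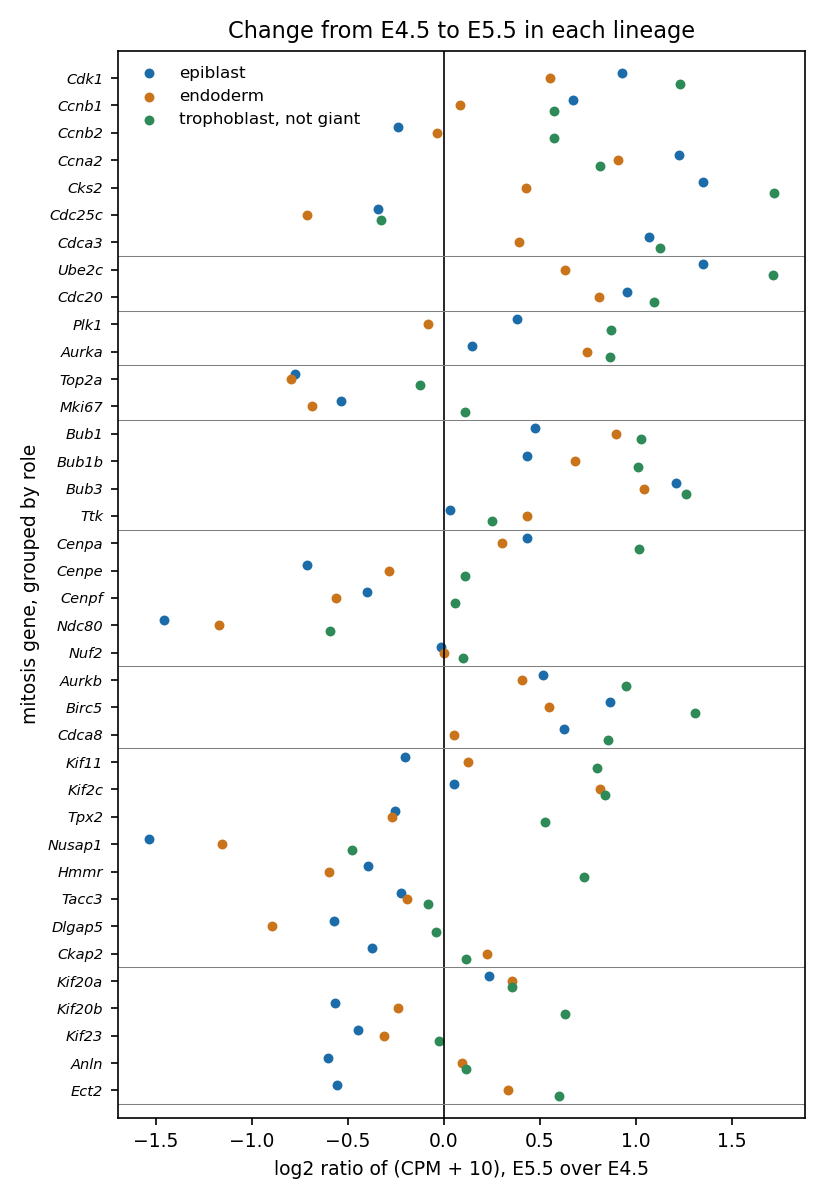
Log2 ratio of E5.5 over E4.5 (CPM + 10) for each of the 38 genes, grouped by role, in epiblast, endoderm and trophoblast; the vertical line is no difference. Most trophoblast points lie right of the line, with Cks2 at 1.72, while Nusap1 and Ndc80 lie left of it in all 3 lineages.

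Between E3.5 and E4.5, both flushed and filtered, 2 genes were higher in epiblast at E4.5 (Nusap1 and Top2a, background 16.4%) and 2 lower (Cdca3 and Cdc25c, 18.2%). In trophoblast Top2a was higher (180 to 388 CPM; background 14.8%) and Cdca3, a mitotic entry factor, lower (163 to 41.6 CPM; 15.2%). The E3.5 classes hold 44 and 42 cells.

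Lineages were compared within libraries. At E4.5 6 of the 38 genes were lower in trophoblast than in epiblast (background 21.7%) and none higher (16.1%), with a median of -0.38 against -0.06 over all tested genes. Nusap1 (52.5 and 203 CPM, log2 ratio -1.76), Kif20b (35.8 and 105 CPM, -1.33) and Kif11 (46.1 and 119 CPM, -1.2), kinesins and a spindle protein, were lowest, and Ect2, Kif2c and Top2a also passed 2-fold. The count for the list is at or under its background, whereas the shift of 32 of 38 genes below 0 is what the sums show. Anln (0.48), Ccna2 (0.42) and Cdc25c (0.30) were at the other end.

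At E5.5 the same pair differed in 1 gene, Anln, at 115 and 44.2 CPM (log2 ratio 1.2; background 12.5% higher and 16.0% lower), and the median was 0.04. Hmmr, a spindle pole protein (90.6 and 47.9 CPM, 0.80), and Ccnb2 (84.7 and 51.5 CPM, 0.62) came next. Nusap1 (34.8 and 63.4 CPM, -0.71), Top2a (355 and 471 CPM, -0.40) and Cenpf (131 and 172 CPM, -0.37) were lowest. At the stages between, 3 genes were lower in trophoblast at E4.75 (Nusap1, Top2a and Cenpf, background 20.5%), and Nusap1 was the 1 lower gene at E5.0 (24.4 and 61.1 CPM, background 16.9%) and at E5.25 (28.0 and 66.4 CPM, background 15.9%). None was higher at these 3 stages (15.8%, 12.8% and 12.6%). Nusap1 was therefore past 2-fold lower in trophoblast from E4.5 to E5.25 and not at E5.5.

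Endoderm and epiblast at E4.5 differed in Ect2 (69.1 and 139 CPM, log2 ratio -0.91) and Ckap2 (25.9 and 55.3 CPM, -0.87), both lower in endoderm (2 of 38, background 15.5%), with Nusap1 next (-0.83). Cdca3 (0.79), Mki67 (0.71) and Tacc3 (0.53) were highest, and none reached 2-fold (background 20.8%). At E5.5 Cdca8, the passenger complex subunit, was lower in endoderm (85.9 and 182 CPM, -1.0; 1 of 38, background 9.82%), followed by Cks2 (-0.70) and Bub1b (-0.54), while Anln (0.73), Kif23 (0.60) and Mki67 (0.56) were highest and none was counted (background 25.6%). In the middle stages Nusap1 (48.3 and 120 CPM) and Ckap2 (19.6 and 40.9 CPM) were lower in endoderm at E4.75 (2 of 38, background 15.7%; 0 higher, 28.0%). At E5.0 Mki67 was higher (117 and 54.8 CPM; 1 of 38, background 29.2%) and Cdca8 lower (93.5 and 187 CPM; 1 of 38, background 13.3%), and at E5.25 none was counted (29.8% higher and 12.8% lower). At E5.5, without doublet removal or with the mixed clusters kept, Cdca8 did not pass 2-fold either. The median of the 38 at E5.5 was -0.09 and that of all tested genes 0.22, so the list lay below the general shift of this pair.

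Trophoblast and endoderm at E4.5 differed in 4 genes, all lower in trophoblast (background 20.5%), with none higher (10.4%). These were Kif11 (46.1 and 119 CPM, log2 ratio -1.2), Kif20b (35.8 and 91.4 CPM, -1.15), Nusap1 (52.5 and 109 CPM, -0.93) and Dlgap5, and Anln (0.45), Ckap2 (0.35) and Cdc20 (0.22) stood highest. Between these stages none was counted at E4.75 (10.4% higher and 26.4% lower) or E5.0 (9.71% and 28.8%), and at E5.25 Nusap1 (28.0 and 59.0 CPM) and the checkpoint kinase gene Ttk (26.7 and 55.2 CPM) were lower in trophoblast (2 of 38, background 28.8%) and none higher (9.61%). At E5.5 none was counted (background 7.92% higher and 26.7% lower), and the median was 0.16 against -0.26 over all tested genes. With size factors 3 genes were higher in trophoblast. These lineage pairs share classes with one another, so they are not independent of each other.

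Parietal endoderm differed from the other endoderm in Kif23, the kinesin of the central spindle, at E4.75 (180.2 and 82.4 CPM) and E5.0 (171 and 77.9 CPM). This was 1 of 38 genes higher at each of these stages (background 3.86% and 6.65%) and none lower (6.33% and 8.82%), and at E5.25 and E5.5 none was counted higher (7.92% and 6.20%) or lower (10.0% and 8.45%). At E4.75 33 of the 38 ratios were above 0, with a median of 0.19 against -0.06 over all tested genes.

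Depth per cell differed between libraries, so each cell was thinned to 3000 UMIs before genes were counted per cell. At E4.5 17.1% of trophoblast cells (95% binomial interval 12.5% to 22.5%) had UMIs of at least 10 of the 38 genes, against 37.5% of epiblast cells (32.0% to 43.2%) and 39.5% of endoderm cells (34.8% to 44.4%). Cells with UMIs of at most 2 of the 38 made up 15.8% of E4.5 trophoblast (11.4% to 21.1%), 3.01% of epiblast and 5.48% of endoderm. At E4.75 the shares with at least 10 were 58.0% in trophoblast, 71.1% in epiblast and 50.1% in endoderm. Giant cells had shares of 75.2% (67.8% to 81.5%), 55.1% (48.0% to 62.0%) and 64.4% (57.9% to 70.5%) at E5.0, E5.25 and E5.5, and the other trophoblast 60.7%, 58.3% and 62.2%. None of the 165, 207 and 236 giant cells deep enough had 2 or fewer, and the exact binomial upper limits are 2.21%, 1.77% and 1.55%. Unthinned, the shares with at least 10 were 78.2% in trophoblast and 89.6% in epiblast at E4.5, and 90.3% in giant cells and 91.9% in trophoblast at E5.5. The thinning left out 12 of 248 giant cells and 64 of 1836 trophoblast cells at E5.5, and 0 cells of either E4.5 class.

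**Figure D5:**
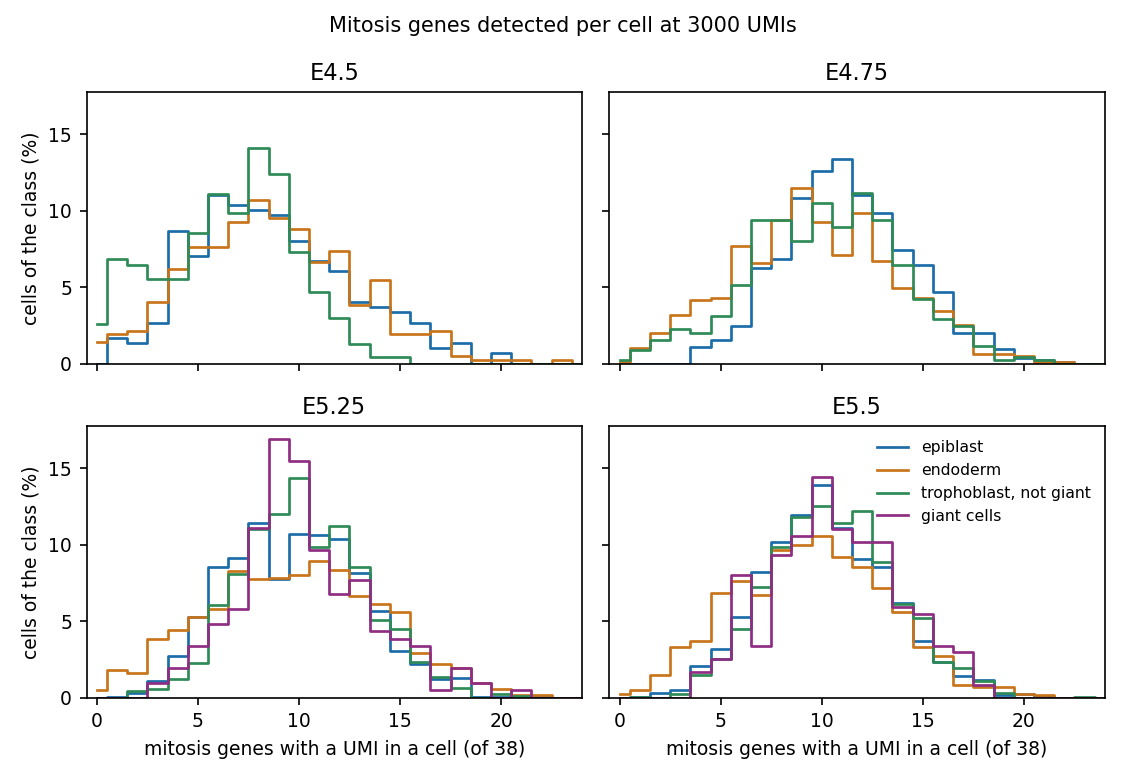
Share of cells (%) by the number of the 38 genes with a UMI after thinning to 3000 UMIs, in 4 libraries; lines are epiblast, endoderm, trophoblast and, at E5.25 and E5.5, giant cells. At E4.5 the trophoblast line has an extra rise at the left, where 15.8% of cells have 2 genes or fewer, and the giant cell lines overlap the other trophoblast.

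The E4.75 groups split in the same way at equal depth. Of the 34 cells grouped with E4.5, 14 (41.2%, 24.6% to 59.3%) had 2 or fewer of the 38 genes at 3000 UMIs and 1 had at least 10. Of the other 414 trophoblast cells 2 (0.483%, 0.0586% to 1.73%) had 2 or fewer and 259 (62.6%) at least 10. The medians were 3 and 11 genes per cell.

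From E5.0 to E5.5 the cell-to-cell spread of the summed list was lower in both trophoblast classes than in epiblast and endoderm. With cells thinned to 5000 UMIs, the variance over the mean of the sum per cell, which is 1 for pure counting, was 3.097, 3.72 and 2.76 in epiblast from E5.0 to E5.5 and 4.33, 5.43 and 3.96 in endoderm. In giant cells it was 2.23, 2.33 and 1.67 and in the other trophoblast 1.97, 2.46 and 2.63. At E4.75 the order was another, with trophoblast at 3.46, above epiblast at 2.47 and below endoderm at 4.27. A second random thinning to the same depth gave 1.85, 1.95 and 1.69 in giant cells and 2.10, 2.38 and 2.63 in the other trophoblast, so the order of these classes at E5.0 changed with the draw. At 3000 UMIs giant cells stood at 1.55, 2.02 and 1.68 and the other trophoblast at 1.54, 1.75 and 1.94. Giant cells were below the other trophoblast in all 3 of these thinnings at E5.5 only, and both were below epiblast and endoderm in each of them. This holds for the other trophoblast as a pooled class. At E5.5 its extraembryonic ectoderm stood above epiblast, at 2.96 and 2.76 with 5000 UMIs and 2.20 and 2.10 with 3000 UMIs. The ectoplacental cone stood at 2.22 and 1.67 at these depths.

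The other cell cycle genes were read from 5 further lists. In giant cells against the other trophoblast none of 25 S phase genes was counted in either direction at E5.0, E5.25 or E5.5, with medians of -0.14, -0.14 and 0.04. At E5.5 the highest were the licensing factor gene Cdt1 (193 and 138 CPM, log2 ratio 0.46) and Rrm1, a subunit of ribonucleotide reductase (154 and 122 CPM, 0.32). The lowest were Tyms, which makes thymidylate (48.4 and 78.9 CPM, -0.61), and the uracil glycosylase gene Ung (65.3 and 101 CPM, -0.57). The S phase sum was 3140.2 and 3059 CPM there.

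Among 9 genes of G1 and S cyclins and their kinases, 7 were detected, and 0, 1 and 2 were higher in giant cells at E5.0, E5.25 and E5.5 with none lower (background 8.94%, 9.81% and 9.25% higher). Ccne1, which encodes cyclin E1 and drives S phase entry, stood in giant cells at 306, 291 and 297 CPM and in the other trophoblast at 168, 136 and 163 CPM. It was past 2-fold at E5.25 only. At E5.5 the highest 2 were Ccnd1 (53.6 and 17.6 CPM, log2 ratio 1.2) and Ccne2 (63.0 and 30.3 CPM, 0.86), both past 2-fold, and the lowest Cdk4 (205 and 290.0 CPM, -0.48) and Ccnd3 (68.1 and 93.2 CPM, -0.40). All 3 giant cell libraries had Ccne1 above the other trophoblast.

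Of 6 CDK inhibitor genes 4 were detected at E5.5, and Cdkn2a was lower in giant cells, with no UMI there (upper 95% Poisson limit 1.73 CPM) against 17.2 CPM in the other trophoblast. Cdkn2d (-0.08) and Cdkn1b (-0.01) differed little. Cdkn1c (p57), known as an inhibitor that giant cells use to block mitosis, stood at 27.6, 70.5 and 123 CPM in giant cells and 41.2, 51.0 and 106 CPM in the other trophoblast, below it at E5.0 and above at the later stages. None of 7 mitotic entry brakes and related genes was counted at any of the 3 stages. At E5.5 Wee1 (94.0 and 58.8 CPM, 0.60) and Pkmyt1 (17.9 and 10.2 CPM, 0.46), the kinases that inhibit Cdk1, stood highest, and Gmnn (272 and 310.1 CPM, -0.19) lowest with Chek1 (0.12). Of 12 genes for factors that drive mitotic transcription 11 were detected and 1, E2f2 (13.6 and 4.93 CPM, 0.66), was higher at E5.5; Lin54 (0.40) came next, and E2f4 (-0.52) and E2f3 (-0.21) were lowest.

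In trophoblast from E4.5 to E5.5 S phase genes moved in the same direction as the 38: 7 of 25 were higher (background 11.2%) and none lower (15.0%), with a median of 0.64 against 0.05 over all tested genes. Their sum went from 2035 to 3059 CPM. In epiblast 3 of 25 were higher (background 13.0%) and 2 lower (18.1%), shares near or under the background, with a median of 0.13 against 0.01. In endoderm 6 were higher (17.5%) and 2 lower (11.7%), with a median of 0.73 against 0.18.

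The 10 genes outside the list whose level was most like the mean of the 38 over 27 combinations of class and stage, with extraembryonic ectoderm and cone taken apart from E5.0, were Polr2a, Ahsa2, Nepro, Ilf2, Hnrnpu, Bzw2, Gm16286, Ercc6l, Zfp330 and Knstrn. Their Pearson r ranged from 0.77 for Knstrn to 0.80 for Polr2a, as a description of points that share libraries and depth. Each of the 38 is itself part of that mean, which raises its r by construction. Within the list, r with the mean of the 38 was highest for Cenpa (0.76), Tpx2 (0.75) and Plk1 (0.74) and lowest for Ndc80 (-0.35), Cdc25c (-0.33), Ckap2 (-0.33) and Nusap1 (-0.24). Of these, Ndc80 and Nusap1 stood lower at E5.5 than at E4.5 in epiblast, endoderm and trophoblast. Whether genes with higher early levels in general ran against the list was not tested.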

How the data were processed

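Single-cell RNA was measured in 6 libraries, 1 per stage. The authors deposited raw UMI counts for each gene in each barcode, made with Cell Ranger 7.1.0 as the file headers state. The builds mm10, GRCm38 and hg38 are named in the submitters' processing notes, without the role of hg38. The annotation release and the cell calling were not given in the sources used here.

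Barcodes with at least 1500 genes and at most 15% mitochondrial counts were kept, and the highest Scrublet scores (0.8% per 1000 cells, at most 8%) were removed. Counts were scaled to 10000 per cell, and 2000 variable genes without the 38 members and 25 S phase genes, 30 principal components and 15 neighbours gave Leiden clusters at resolution 1.0 (scanpy 1.11.5, Python 3.11.15). A class needed 3 markers at 2-fold over the mean of clusters (1.5-fold for sub-classes), and a giant cell cluster Prl3d1 among its 10 leading genes. Clusters whose second marker score exceeded 0.35 of the first were set aside. The sub-class fold, the Prl3d1 condition and the 0.35 limit were set after the clusters were seen.

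UMIs were summed per class and library (at least 30 cells) and given as CPM with exact 95% Poisson intervals, shares with exact binomial ones, all for counting error only. No comparison was tested, since each stage is 1 library. Ratios use a pseudocount of 10 CPM, and a gene was tested for 2-fold where 1 class had 10 CPM. The ratio script was tested on simulated data. Library totals ran from 1788882 to 112702098 UMIs. The members and all lists were chosen with earlier results of these data known. Named are the highest member of each role, the 3 highest and 3 lowest in each main contrast, and 2 of each in other lists. Variation of cell filters, doublet removal, scaling, pseudocount, minimum level, clustering and thinning depth was planned. Keeping the mixed clusters, the E4.75 sub-cluster and the pooled cells with most Prl3d1 were added after the data were seen.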

Additional observations from a re-analysis of the deposited data

How the results depend on the processing

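Over 73 results, 783 alternative values were computed: 661 stayed within the limits of the main value, 122 moved and 0 reversed. In trophoblast from E4.5 to E5.5 the count of higher genes stayed between 12 and 16 of 38 in all settings run, and the median between 0.56 and 0.81. From E4.5 to E4.75 it was 7 with median-of-ratios size factors.

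With giant cells taken as the cells with Prl3d1 at 0.1% or more of UMIs, Anln was no longer past 2-fold, with 0 genes higher at E5.0 and 0 at E5.25, and 1 gene each was lower at E5.0 and E5.5. The higher count at E5.0 was also 0 with at least 2500 genes per cell, and with the mean of per-cell CPM 1 gene was lower at E5.5. The log2 ratio of Anln in giant cells ranged over all settings from 0.90 to 1.26 at E5.0, 0.67 to 1.36 at E5.25 and 0.40 to 0.83 at E5.5. The median over the 38 in giant cells ran from -0.05 to 0.13 at E5.0, from -0.08 to 0.10 at E5.25 and from -0.09 to -0.01 at E5.5.

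In endoderm against epiblast at E4.5 the genes lower were 1 with at least 1000 genes per cell, at most 10% mitochondrial counts, no doublet removal or all variable genes, and 4 with clusters per library or size factors (median -0.21). At E5.5 they were 0 without doublet removal or with mixed clusters kept, and 2 with size factors (median -0.33). In trophoblast against endoderm size factors gave 2 genes lower at E4.5 (median -0.17) and 3 higher at E5.5 (median 0.38). At E5.5 1 gene was higher with at least 1000 or 2500 genes per cell, at most 10% mitochondrial counts, clusters per library or all variable genes. For endoderm from E4.5 to E5.5 the genes higher were 1 with at least 1000 or 2500 genes, at most 10% mitochondrial counts, all variable genes or size factors, 5 without doublet removal, and 4 with the mean of per-cell CPM or with mixed clusters kept.

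The shares of cells with at least 10 of the genes depend on depth by construction. At 2000 UMIs, at 5000 UMIs and without thinning they were 5.13%, 59.7% and 78.2% in E4.5 trophoblast, 18.4%, 77.4% and 89.6% in E4.5 epiblast, 29.4%, 98.8% and 90.3% in E5.5 giant cells, and 25.6%, 94.7% and 91.9% in E5.5 trophoblast. With at least 2500 genes per cell only 5 cells were left in the E4.5 trophoblast class, most of the others falling in a mixed cluster, so its contrasts gave no value. The causes of the other differences were not tested. No paired analysis was possible because each stage is 1 library and no group shares a replicate number with a second sample. The counts of UMIs set the counting intervals, and with 1 library per stage the spread between embryos, litters or captures is not known.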
